A study of Danio rerio with 4 samples.

Results

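The fatty acid binding proteins of zebrafish skin were examined as 10 gene names, which met 11 of the 32105 genes counted. They are small cytosolic carriers that hold long-chain fatty acids, and some of them bile acids, inside a barrel and ferry them to membranes, enzymes and nuclear receptors of the PPAR family. The members are named for the tissue in which each was first found: liver (FABP1), intestine (FABP2), heart and muscle (FABP3), adipocyte (FABP4), ileum (FABP6) and brain (FABP7). Zebrafish carry extra copies of several of them and also a liver bile acid binding type, fabp10.

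The family was followed in RNA from the skin of male zebrafish, sequenced as 4 libraries at 3 ages. The library of 5 months (n = 1) came from the strain AB JxTu, the 2 libraries of 24 months from the line AB JxTu Tg(wt1b:GFP), and the library of 30 months (n = 1) again from AB JxTu. In the 24-month line green fluorescent protein is placed under wt1b sequence, so the age of 24 months and the line cannot be told apart. Only 30 and 5 months share a strain. Whether each RNA was from a single fish or pooled fish, and whether the 24-month pair was taken from separate fish, is not stated; p-values therefore measure only the spread between those libraries, which may be technical.

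The members were 10 gene names, chosen by symbol with the counts of these libraries known: the family was selected on the level of fabp1b.2, which had been seen to be high in both 24-month libraries and nearly absent at 30 months. Its levels, and the contrast of 30 with 24 months for every member, are therefore given as a description, with no test. Direct matches were found for fabp1b.2, fabp2, fabp3, fabp6 and fabp10a, while fabp11a and fabp11b are listed under their synonyms fabp4a and fabp4b. The names fabp1a and fabp1b.1 both fall on the symbol FABP1, which 2 genes carry (ENSDARG00000019357 and ENSDARG00000059227), and fabp7a falls on FABP7, which 2 genes carry (ENSDARG00000007697 and ENSDARG00000034650). The sources used here do not say which of each pair is which copy, so these 4 genes are given by their identifiers. The genome build named is GRCz10, and no coordinates are given.

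Libraries held 18211821 counts at 5 months, 20070292 and 11833498 counts in replicates 1 and 2 of 24 months, and 20441260 counts at 30 months. Of the 32105 genes, 24270, 24481, 19409 and 23155 had reads in the same order, so genes at 0 were most frequent in replicate 2, the smallest library. Levels are given as CPM, counts scaled to library size with factors from the trimmed mean of M-values (TMM); they are not per length, so they are compared between libraries and not between genes. With library totals in place of TMM the median log2 difference of all genes was −0.26 instead of −0.06 between 24 and 5 months, and −0.22 instead of −0.14 between 30 and 24 months. A count of 0 allows up to 0.144 CPM at 5 months, 0.13 and 0.31 CPM in replicates 1 and 2, and 0.158 CPM at 30 months, where 3 counts set the limit. The 24-month replicates stood far apart, with 40.5% of the 13182 genes of at least 5 CPM on average lying 2-fold or more from each other. The most abundant marker of skin epithelium, krt5, a keratin of the epidermis, was high in every library. It had 21080 CPM at 5 months, 26300 and 49230 CPM in the 24-month replicates and 28650 CPM at 30 months. Not all markers of that list were high: krt92 stood at 1.15, 1.17, 0.517 and 0.158 CPM in the same order. Markers of organs under the skin were uneven between the libraries, and they are given beside members for comparison, whether or not their levels run together.

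Reads of the family made up 0.0428% of counts at 5 months, 0.0528% and 0.0334% in replicates 1 and 2 of 24 months, and 0.0596% at 30 months. Most came from fabp3, fabp11a and fabp1b.2. Of the 11 genes, 9 had at least 1 count, 7 were kept by the filter on low counts, and 5 averaged at least 5 CPM: fabp1b.2, fabp3, fabp11a, fabp10a and FABP7 (ENSDARG00000007697). The make-up of the family's reads differed by age. The liver-type gene fabp1b.2 gave 7.04% of them at 5 months, 35.3% and 40.7% in replicates 1 and 2 of 24 months, and 0.0328% at 30 months. The muscle-type gene fabp3 gave 44.2%, 38.9%, 44.2% and 75.7% in the same order, and the adipocyte-type gene fabp11a gave 40.1%, 15.4%, 14.6% and 22.2%.

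**Figure D1:**
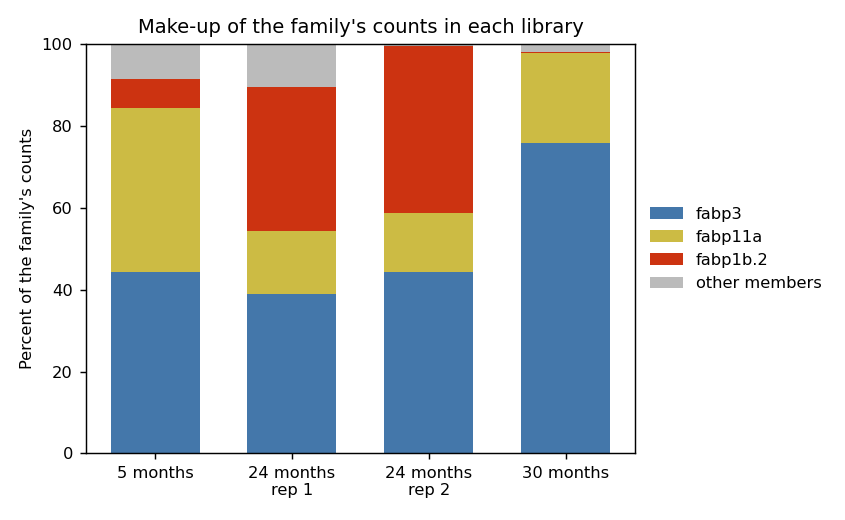
Percent of the family's counts (y axis) from fabp3, fabp11a, fabp1b.2 and the other members in each library (x axis); counts are not scaled for length. The fabp1b.2 part is widest in both 24-month libraries, at 35.3% and 40.7%, and is 0.0328% at 30 months.

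The liver-type gene fabp1b.2 (ENSDARG00000103398) had the widest range over ages among the members. Counts were 549 at 5 months, 3736 and 1610 in replicates 1 and 2 of 24 months, and 4 at 30 months. These are 26.4 CPM (95% exact Poisson interval, counting error only, 24.2 to 28.6), 162 CPM (157 to 168), 166.5 CPM (158.5 to 174.9) and 0.21 CPM (0.0572 to 0.538). Both 24-month libraries stood above the 5-month library, and the 30-month library lay near the limit that a count of 0 allows.

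At 24 months fabp1b.2 averaged 164 ± 2.97 CPM (SD, n = 2). The 24-month level was 2.64 higher than that of 5 months on the log2 scale, with 2.62 for replicate 1 and 2.66 for replicate 2. The log2 difference of 30 and 24 months was −9.57 in the fit of all libraries, and it was −8.99 against replicate 1 and −9.02 against replicate 2, both with a prior count of 2. Pooled over the pair, 24 months stood 779 times above 30 months, with a counting interval from 304 to 2860. Within the strain AB JxTu, 30 months stood at 0.00797 times the level of 5 months, with a counting interval from 0.00216 to 0.0205.

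The 24-month replicates lay close together in fabp1b.2, whose high level in both had served in its choice. Their log2 difference was −0.04, and 297 of 13182 genes with at least 5 CPM on average lay as near or nearer to each other. A level at least 4 times that of both 5 and 30 months in each 24-month library was found for 7 of these genes (0.0531%), fabp1b.2 being one of the 7. It was chosen for levels of that shape, so neither count measures how unusual it is. Others of the 7 were vopp1a and ANKRD37, singled out after their values were seen. The gene ANKRD37 had 1.82 CPM in the 5-month library, 9.34 and 11.7 CPM in the 24-month pair and 1.99 CPM in the 30-month library, where fabp1b.2 had 0.21 CPM.

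**Figure D2:**
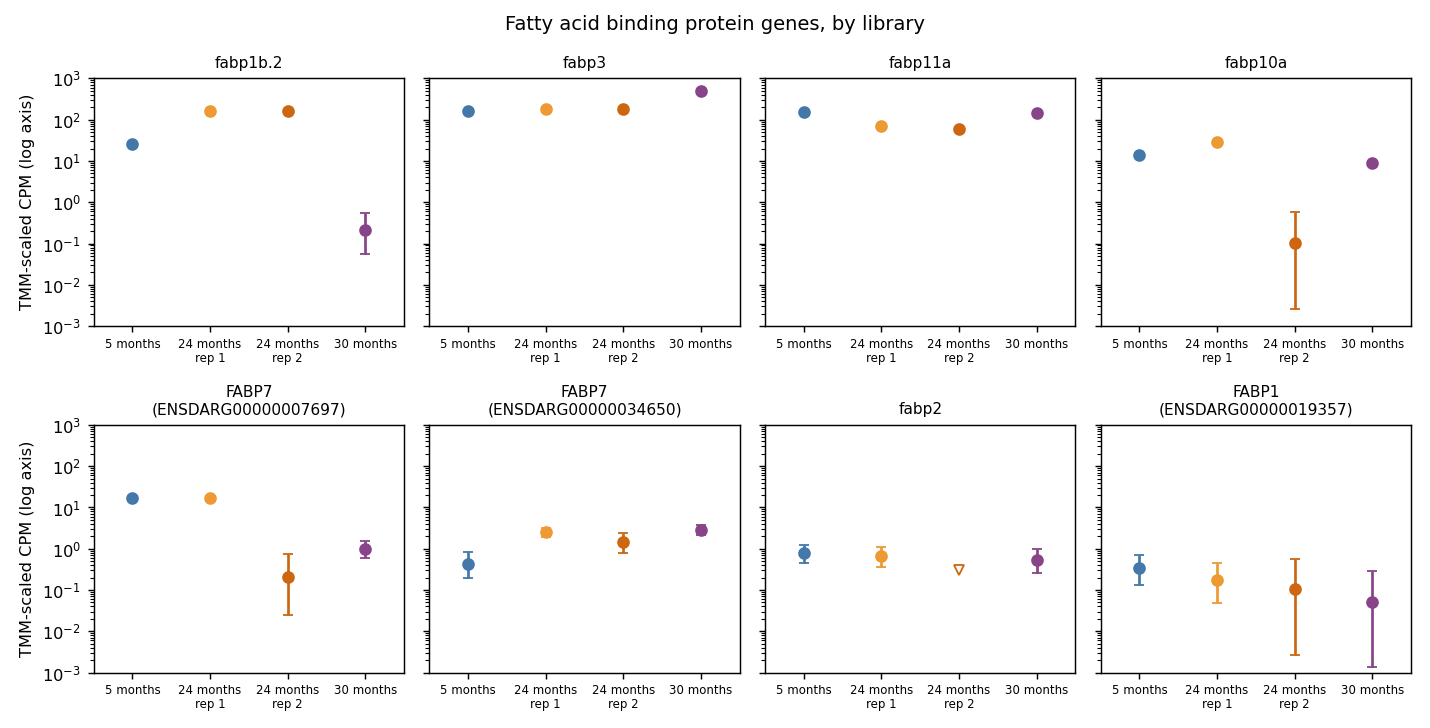
TMM-scaled CPM (log axis) of 8 member genes in each library; bars are 95% exact Poisson intervals for counting error, and an open triangle marks a library with a count of 0 at the level that 3 counts give. Only fabp1b.2 pairs 2 high 24-month libraries, at 162 and 166.5 CPM, with 0.21 CPM at 30 months.

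Genes with a profile like that of fabp1b.2 were ranked by Euclidean distance over the 4 libraries, on log2(CPM + 1) centred on each gene's mean, among 11749 named genes of at least 5 CPM on average. The nearest was lgals4, a galectin (sugar-binding lectin) of digestive epithelia in mammals, at a distance of 2.05. It stood at 547 CPM at 5 months, 739.8 and 738.7 CPM in replicates 1 and 2 of 24 months, and 2.89 CPM at 30 months. Like fabp1b.2 it was almost equal in the 24-month pair and low at 30 months, but its 5-month level lay much closer to that of 24 months. SAMHD1 (ENSDARG00000071288), a dNTP hydrolase, followed at a distance of 2.56, with 62.0, 50.1, 268 and 2.78 CPM. SLC1A1, a glutamate transporter, lay at 2.61, with 7.54, 11.1, 22.0 and 0 CPM. Further off, vopp1a lay at 3.09, with 1.06, 35.6, 152 and 0.21 CPM, and SGMS2, a sphingomyelin synthase, at 3.14, with 13.0, 10.3, 33.7 and 0.578 CPM. In SAMHD1, SLC1A1, vopp1a and SGMS2 replicate 2 exceeded replicate 1, which sets them apart from fabp1b.2 and lgals4. Distances over 4 libraries rest on few points. Genes ranked this way share the low 30-month level of fabp1b.2 in part by choice.

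**Figure D3:**
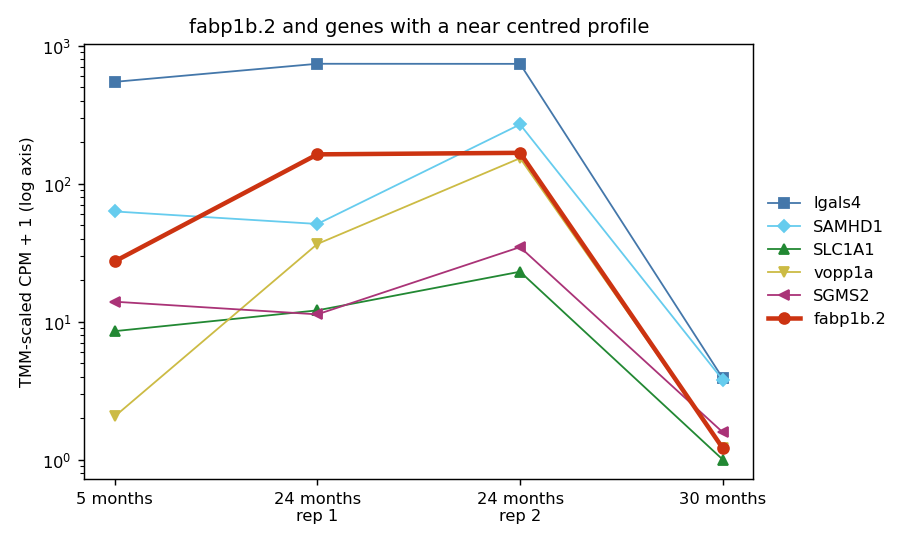
TMM-scaled CPM + 1 (log axis) of fabp1b.2 and of the 5 genes described beside it in the 4 libraries; lines only join the points of a gene. All of them are lowest at 30 months, which is partly set by their choice for likeness to fabp1b.2. Level across the 24-month pair are fabp1b.2 and lgals4.

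Other liver-type copies were almost absent. FABP1 (ENSDARG00000019357) had 7 counts at 5 months, 4 and 1 in replicates 1 and 2 of 24 months and 1 at 30 months, and FABP1 (ENSDARG00000059227) had 0 in every library. Whichever of the pair is fabp1b.1, no library held more than 7 of its reads, while fabp1b.2 reached 3736. In the RefSeq table of another build (GRCz12tu) fabp1b.1 is the next protein-coding gene beside fabp1b.2, followed by znf366 and mrps27. In these libraries znf366 stood at 3.504, 4.61, 3.31 and 4.51 CPM and mrps27, a mitochondrial ribosomal protein gene, at 14.0, 18.6, 16.6 and 12.3 CPM for 5 months, replicates 1 and 2 of 24 months and 30 months. Reads of near-identical copies could be split or lost in counting, so the split within the FABP1 group is uncertain.

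Intestinal members were low as well. The gene fabp2, the carrier of absorptive enterocytes, had 16 counts in the 5-month library, 15 and 0 in the 24-month replicates and 10 in the 30-month library. Its CPM of 0.768, 0.652, 0 and 0.525 have overlapping counting intervals in the 3 libraries with reads. Between 24 and 5 months its log2 difference was −1.14 (SE 3.47, edgeR adjusted p = 1). The ileal bile acid carrier fabp6 had 1 count in all, in replicate 1 of 24 months.

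Enterocyte markers were of several patterns. Of 23 matched genes 22 had reads, and their summed level was 588 CPM at 5 months, 554 and 602 CPM in replicates 1 and 2 of 24 months and 756 CPM at 30 months. Most of it was slc51a, a subunit of the organic solute transporter, at 478, 516, 561 and 687 CPM, followed by ANPEP (ENSDARG00000036809) and VIL1, an aminopeptidase and the microvillus protein villin. The defining peptide transporter SLC15A1 (ENSDARG00000044528) stood at 0.864, 0.869, 0 and 1.73 CPM, and chia.2 was at 0 in all libraries. In replicate 2, where fabp1b.2 stood at 166.5 CPM, 14 of the 23 markers were at 0, against 2 at 5 months, 4 in replicate 1 and 3 at 30 months. Replicate 2 was the smallest library and had reads for 19409 of all 32105 genes, against 24270 at 5 months. Several of these markers had few counts in the other libraries too. Of the 18 tested markers 0 were called in either comparison by edgeR, DESeq2 or limma-voom, with 4 at an unadjusted edgeR p under 0.05 between 24 and 5 months, beside 438 of all 21535 genes, and 0 between 30 and 24 months, beside 1024. The 4 were lower at 24 months and had reads mainly at 5 months: the glucose transporter SLC5A1, at 15.8, 0.956, 0 and 0.0525 CPM, and 3 genes of the amino acid transporter SLC6A19, of which SLC6A19 (ENSDARG00000056719) stood at 17.8, 1.78, 0 and 0.105 CPM. They were named after their values were seen. The kidney tubule list, given further below, was likewise highest at 5 months, with sums of 374, 12.9, 2.79 and 2.78 CPM. Which cells gave the reads of these 4 genes was not tested.

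The muscle-type gene fabp3 (ENSDARG00000023290), which serves fatty acid use in heart and oxidative muscle, stood at 166 CPM at 5 months, 179 and 181 CPM in replicates 1 and 2 of 24 months and 485 CPM at 30 months. The first 3 libraries lay close together, and the 30-month library lay above all of them. Between 24 months, at 180 ± 1.56 CPM (SD, n = 2), and 5 months the log2 difference was 0.12 (SE 0.94, edgeR adjusted p = 1), and it was −0.10 with library totals in place of TMM. Between 30 and 24 months the log2 difference was 1.43, with 1.44 and 1.42 against replicates 1 and 2. Between 30 and 5 months, within 1 strain, it was 1.55, a ratio of scaled counts of 2.93 (counting interval 2.81 to 3.04). At least 2-fold higher at 30 than at 5 months were 12.2% of genes of at least 5 CPM, and 14.8% were at least 2-fold lower. Among the 5 members at that level fabp3 was higher, fabp1b.2 and FABP7 (ENSDARG00000007697) were lower, and fabp10a and fabp11a lay within 2-fold.

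Skeletal muscle genes moved with fabp3 in part. The 24 matched genes summed to 20520 CPM at 5 months, 10090 and 8475 CPM in replicates 1 and 2 of 24 months and 22400 CPM at 30 months, with no gene at 0 in the 5-month, replicate 1 and 30-month libraries and 3 at 0 in replicate 2. The creatine kinases ckma and ckmb, which buffer ATP in muscle, stood highest at 30 months, at 7567 and 7500 CPM, against 2757 and 2976 CPM (ckma) and 2714 and 3293 CPM (ckmb) in the 24-month replicates. Their 5-month levels were 3477 and 3940 CPM. Between 30 and 24 months neither passed (edgeR adjusted p = 1 for both). The parvalbumin gene pvalb2, a calcium buffer of fast fibres, ran otherwise, with 4631, 626, 168 and 79.4 CPM over 5 months, replicates 1 and 2 of 24 months and 30 months. Of 23 tested muscle genes 1 was called lower between 24 and 5 months and 3 were called higher between 30 and 24 months, against 0.125% and 0.683% of all 21535 genes tested. The first was ACTA1 (ENSDARG00000055618), and the 3 were TNNI2 (ENSDARG00000005841), MYBPC1 and MYBPC2, all named after their values were seen. DESeq2 called 3 lower and 2 higher in the same comparisons, limma-voom 2 lower and 0 higher, and library totals 0 in both. In such bulk samples fewer cells of a type and less RNA per cell cannot be told apart. The part of muscle in the level of fabp3 was not tested.

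Genes of fatty acid oxidation, which burn the acids that fabp3 carries in muscle, were also at their highest sum at 30 months, at 3086 CPM. They summed to 1409 CPM at 5 months and to 1084 and 1532 CPM in replicates 1 and 2 of 24 months. Of 28 genes, 22 had between 30 and 24 months a positive log2 difference, with a median of 1.03 against −0.14 over all genes tested. Only cpt1ab, the carnitine palmitoyltransferase that admits fatty acids to mitochondria, was called higher. It stood at 136 CPM at 30 months, against 18.8 and 11.2 CPM at 24 months and 38.7 CPM at 5 months (log2 difference of 30 and 24 months 3.17, SE 0.85, edgeR adjusted p = 0.0363), and it was not called with DESeq2, limma-voom, library totals, a floor of 5 CPM or the newer edgeR dispersion setting. The acyl-CoA dehydrogenase ACADM stood at 502, against 206 and 200 CPM (adjusted p = 1 by edgeR), and the isomerase ECI1 at 47.4, against 9.56 and 1.76 CPM (adjusted p = 0.219 by edgeR). Between 24 and 5 months 0 of the 28 genes were called by edgeR, DESeq2 or limma-voom, with 0 at an unadjusted p under 0.05; 13 had a positive and 15 a negative difference, and the median was −0.24 against −0.06 over all genes. Unadjusted p was under 0.05 for 5 of the 28 between 30 and 24 months, beside 1024 of all 21535 genes. Between 30 and 5 months 11 of 28 were at least 2-fold higher, beside 12.2% of all genes of at least 5 CPM, and 1 was at least 2-fold lower, beside 14.8%, the peroxisomal EHHADH, at 5.78 against 23.1 CPM.

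**Figure D4:**
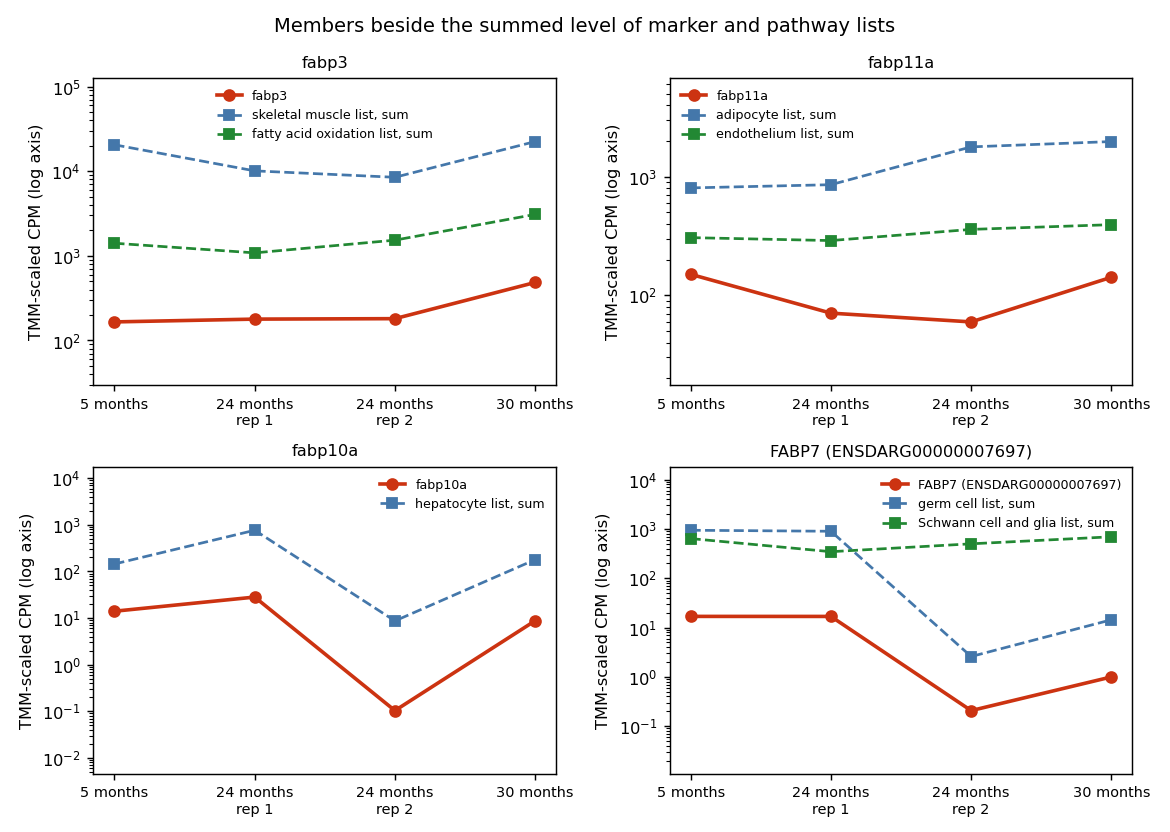
TMM-scaled CPM (log axis) of 4 members in each library, beside the summed CPM of marker and pathway lists; lines only join the points. The fabp3 and fatty acid oxidation sum points are highest at 30 months, fabp11a is lower in both 24-month libraries than at the other ages, fabp10a and the hepatocyte sum are both lowest in replicate 2, and FABP7 (ENSDARG00000007697) is low where the germ cell sum is low.

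The adipocyte-type gene fabp11a (ENSDARG00000017299), a fish relative of FABP4, stood at 150.2 CPM at 5 months, 70.7 and 59.7 CPM in replicates 1 and 2 of 24 months and 142 CPM at 30 months. Both 24-month libraries lay below the other ages. At 24 months it averaged 65.2 ± 7.82 CPM (SD, n = 2), and its log2 difference from 5 months was −1.20 (SE 0.83, unadjusted p = 0.149, edgeR adjusted p = 1), lower in 2 of 2 libraries. Among genes of at least 5 CPM, 4.42% had both replicates at least 2-fold below 5 months and 3.72% had both at least 2-fold above. Of the 5 members at that level, fabp11a was of the first kind and fabp1b.2, whose 24-month level had been used in the choice, of the second. Between 30 and 24 months the log2 difference of fabp11a was 1.12, with 1.00 and 1.25 against replicates 1 and 2. At 30 months fabp3 and fabp11a stood at least 2-fold above both replicates and fabp1b.2 at least 2-fold below both, where 7.62% and 5.01% of genes did so. That contrast served in the choice of the members, so nothing is read from these counts. Between 30 and 5 months the log2 difference of fabp11a was −0.08, less than the SD of 0.17 between the 24-month replicates, and the counting interval of the ratio ran from 0.897 to 0.995. With library totals in place of TMM that difference was −0.38, larger in size than the SD. The second copy, fabp11b, had 0 counts in all libraries.

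The 11 matched adipocyte marker genes, 10 of them with reads, summed to 802 CPM at 5 months, 854 and 1778 CPM in replicates 1 and 2 of 24 months and 1971 CPM at 30 months. The lipid droplet coat gene plin1 had reads only at 5 months, at 0.096 CPM, and lepa was at 0 in all libraries. Most of the sum was cfd, the adipsin gene of the complement system, at 594, 620, 1352 and 1624 CPM, followed by the transcription factor CEBPA and the hormone-sensitive lipase lipea. The lipase lipea was level, at 21.0, 18.5, 19.9 and 20.4 CPM. The adiponectin gene ADIPOQ (ENSDARG00000100086), a hormone of fat cells, stood at 9.12, 5.996, 12.9 and 28.4 CPM, and its other copy ADIPOQ (ENSDARG00000062228) at 2.4, 1.48, 1.86 and 9.87 CPM, lower in both 24-month libraries than at the other ages. The lipid droplet gene CIDEC (ENSDARG00000059651) stood at 2.21, 2.74, 0 and 3.67 CPM. These 3 were named after their values were seen. Of the 9 tested adipocyte genes 0 were called in either comparison by edgeR, DESeq2 or limma-voom, with 0 at an unadjusted edgeR p under 0.05. Endothelial genes, since FABP4 is also made by capillary endothelium in mammals, summed to 306, 289, 359 and 393 CPM, and the VEGF receptor gene kdrl stood at 63.6, 54.0, 58.0 and 67.9 CPM. Next in level were pecam1a, at 16.6, 22.8, 42.5 and 36.0 CPM, and tek, at 20.7, 12.7, 69.8 and 18.95 CPM. Of the 16 tested endothelial genes 7 had a positive and 9 a negative log2 difference between 24 and 5 months. Both 24-month libraries were lower than the other ages in kdrl, FLI1, flt1, stab1, stab2, cdh5 and ESAM (ENSDARG00000077039), and not in the rest of the list. These genes were grouped after their values were seen. The cadherin of vessel walls, cdh5, stood at 29.6, 14.4, 15.2 and 40.5 CPM. ESAM, a junction protein of endothelium, stood at 12.4, 4.35, 5.59 and 7.04 CPM. Neither cdh5 nor ESAM passed between 24 and 5 months (edgeR adjusted p = 1 for both). The 16 tested endothelial genes likewise gave 0 calls by these tools and 0 at an unadjusted edgeR p under 0.05 in both comparisons. The part of these cells in the level of fabp11a was not tested.

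The liver bile acid carrier fabp10a (ENSDARG00000038439) had 292 counts at 5 months, 649 and 1 in replicates 1 and 2 of 24 months and 167 at 30 months, or 14.0, 28.2, 0.103 and 8.77 CPM. The 24-month libraries stood on both sides of the others, replicate 1 being 273 times replicate 2 in scaled counts (counting interval 48.8 to 10780). Between 24 and 5 months the log2 difference was 0.02 (SE 1.19, edgeR adjusted p = 1), with 1.00 for replicate 1 alone and −6.05 for replicate 2 alone. Between 30 and 24 months it was −0.70, with −1.67 and 5.38 against replicates 1 and 2. No direction with age can be given for it. Between 30 and 5 months the log2 difference was −0.67. The summed level of hepatocyte markers was likewise highest in replicate 1 and lowest in replicate 2. Unlike fabp10a, that sum was higher at 30 than at 5 months. All 22 matched genes had reads, and their sum was 145 CPM at 5 months, 765 and 8.69 CPM in replicates 1 and 2 of 24 months and 179 CPM at 30 months. In replicate 2, 9 of them were at 0, among them the fibrinogen genes FGB and FGG, while none was at 0 in the other libraries. The liver-type gene fabp1b.2 ran otherwise, at 26.4, 162, 166.5 and 0.21 CPM in the same order, high in replicate 2 and lowest at 30 months. Transferrin (tfa), the plasma iron carrier, stood at 53.5, 404, 1.24 and 87.2 CPM, fibrinogen alpha (fga) at 6.0, 48.5, 0.103 and 11.7 CPM and ceruloplasmin (CP), a plasma copper protein, at 7.54, 41.2, 0.724 and 8.56 CPM. Of the 22 tested, 0 were called in either comparison by edgeR, DESeq2 or limma-voom, with 1 at an unadjusted edgeR p under 0.05 between 24 and 5 months and 0 between 30 and 24 months. The part of liver RNA in the level of fabp10a was not tested. The copy fabp10b, which is not among the members, stood at 3.07, 3.56, 1.24 and 0.735 CPM.

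The brain-type genes ran in 2 ways. FABP7 (ENSDARG00000007697) had 351 counts at 5 months, 387 and 2 in replicates 1 and 2 of 24 months and 19 at 30 months, which are 16.85, 16.82, 0.207 and 0.998 CPM. It was thus equal in the 5-month library and replicate 1 and low in the others. Its log2 difference between 24 and 5 months was −0.98 (SE 1.30, edgeR adjusted p = 1), with 0.00 for replicate 1 and −5.74 for replicate 2. Between 30 and 24 months the log2 difference was −3.09, with −3.93 and 1.81 against replicates 1 and 2, and between 30 and 5 months it was −3.94. FABP7 (ENSDARG00000034650) had 9 counts in the 5-month library, 57 and 14 in the 24-month replicates and 54 in the 30-month library, or 0.432, 2.48, 1.45 and 2.83 CPM. The 5-month library was the lowest for this copy. The log2 difference between 24 and 5 months was 2.17 (SE 2.66, edgeR adjusted p = 1), higher in 2 of 2 libraries, that between 30 and 24 months was 0.52, and that between 30 and 5 months was 2.44, with a ratio of scaled counts of 6.56 (counting interval 3.21 to 15.1).

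Germ cell markers stood high and low in the same libraries as the first FABP7 gene. The 14 matched genes, all with reads, summed to 941 CPM at 5 months, 898 and 2.59 CPM in replicates 1 and 2 of 24 months and 14.4 CPM at 30 months, and 10 of them were at 0 in replicate 2 and 1 at 30 months. The synaptonemal gene SYCP1, which pairs chromosomes in meiosis, stood at 238, 227, 1.24 and 12.0 CPM, with DDX4 and PIWIL1 of the germ line next in level. Of 12 tested germ cell genes 8 were called lower between 30 and 24 months, beside 0.683% of all genes called in either direction, and 0 were called between 24 and 5 months, beside 0.125%, where 1 had an unadjusted p under 0.05. The calls came from edgeR with TMM, and DESeq2, limma-voom and library totals gave 0 in both comparisons. DDX4 stood at 0.158 CPM at 30 months, against 148 and 0.414 CPM in replicates 1 and 2 of 24 months, so the 24-month mean was set by replicate 1. Glia, the cells best known for FABP7, gave another pattern. Their 17 matched genes summed to 638, 346, 499.5 and 694 CPM, and the glial gene GFAP stood at 1.44, 1.22, 0.103 and 0.473 CPM, while FOXD3 was at 0 in all libraries. The myelin gene mbpb stood at 109, 78.3, 63.8 and 114 CPM, and the glutamate transporter SLC1A3 (ENSDARG00000104431) at 63.0, 49.8, 131 and 109 CPM. Of the 16 tested glial genes 0 were called in either comparison by edgeR, DESeq2 or limma-voom, with 1 at an unadjusted edgeR p under 0.05 in each. The part of germ cells or glia in the level of FABP7 was not tested.

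Among the members tested between 24 and 5 months other than fabp1b.2, 0 of 6 were called by edgeR, DESeq2 or limma-voom, and 0 had an unadjusted p under 0.05, against 0.125% called among all genes. A gap of at least 2-fold between the 24-month replicates was present in fabp10a and FABP7 (ENSDARG00000007697), 2 of the 5 members of at least 5 CPM, beside the 40.5% of all such genes. In the other 3 the log2 gap between replicates was −0.04 for fabp1b.2, −0.02 for fabp3 and 0.24 for fabp11a.

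Of the 128 tested genes in 7 lists of lipid genes 0 were called between 24 and 5 months by edgeR, DESeq2 or limma-voom, beside 0.125% of all genes by edgeR, and 3 had an unadjusted edgeR p under 0.05, beside 438 of all 21535. Between 30 and 24 months only cpt1ab was called, by edgeR with TMM, beside 0.683% of all genes. The called counts, and the count of small p between 24 and 5 months, are near those of genes at large. Nothing particular to lipid genes is read from them. They leave out the unadjusted edgeR p between 30 and 24 months. There the share under 0.05 was larger in the oxidation list than over all genes, as given above. The other lipid lists had so few genes under 0.05 that their shares are not compared with that over all genes. Genes for uptake and activation of fatty acids had medians of −0.15 between 24 and 5 months and −0.53 between 30 and 24 months over 21 tested. Named by the smallest p, the acyl-CoA synthetases ACSL4 (ENSDARG00000010752) and acsl2 stood at 27.9, 84.6, 82.5 and 46.8 CPM and at 36.3, 41.4, 125 and 50.0 CPM for 5 months, replicates 1 and 2 of 24 months and 30 months. The fatty acid transporter SLC27A1 (ENSDARG00000104949) stood at 63.2, 87.3, 224 and 86.1 CPM, and the abundant membrane protein scarb2a at 398, 404.5, 321 and 207 CPM.

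Triglyceride storage and lipolysis genes had medians of 0.01 and 0.05 over 19 tested (−0.29 and −0.02 with library totals), with 2 genes at an unadjusted p under 0.05 in each comparison. The last enzymes of triglyceride synthesis DGAT2 and DGAT1 (ENSDARG00000103503) were lower in both 24-month libraries, at 10.2 and 2.79 CPM against 36.5 CPM at 5 months for DGAT2 and at 4.17 and 4.97 CPM against 15.4 CPM for DGAT1, without passing (edgeR adjusted p = 1 for both). At 30 months they stood at 16.2 and 25.4 CPM. The droplet coat gene plin3 stood at 36.2 CPM at 5 months, 92.1 and 180.3 CPM at 24 months and 98.2 CPM at 30 months, and the lipoprotein lipase LPL (ENSDARG00000087697) at 116, 128, 107 and 221 CPM. Synthesis and desaturation genes had the lowest median of the lipid lists between 24 and 5 months, at −0.71 over 17 tested, and −0.34 between 30 and 24 months. The citrate lyase ACLY (ENSDARG00000099079) stood at 1059, 303, 1743 and 119 CPM, its second copy ACLY (ENSDARG00000055652) at 9.22, 3.78, 0.414 and 10.03 CPM, the desaturase SCD at 139, 18.3, 102 and 35.1 CPM and the elongation enzyme HACD1 at 34.8, 12.2, 1.66 and 16.4 CPM. In each of these genes the 24-month replicates lay far apart. Replicate 2 was the higher in ACLY (ENSDARG00000099079) and SCD, and the lower in ACLY (ENSDARG00000055652) and HACD1.

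Apolipoproteins and lipoprotein assembly genes, which export lipid from liver and gut, had medians of −0.01 and −0.71 over 17 tested. In replicate 2 of 24 months, where 19409 of all 32105 genes had reads, 13 of 20 were at 0. The protein apobb.1 of very low density particles stood at 18.6, 91.7, 0 and 24.9 CPM, high in replicate 1 like fabp10a, and apoa4b.1 and apom at 4.18, 0.521, 0 and 0.21 CPM and at 0.72, 8.78, 0 and 0.315 CPM. The carrier apoeb, which macrophages and skin also make, stood at 875, 550, 1666 and 952 CPM. Related lipid-binding proteins of the retinoid branch had medians of −0.45 and 0.61 over 9 tested: the retinoic acid carriers CRABP1 (ENSDARG00000035904), CRABP1 (ENSDARG00000045926) and CRABP2 (ENSDARG00000073978) stood at 9.94, 4.56, 5.79 and 7.88 CPM, at 1.82, 0.869, 0.207 and 0.525 CPM and at 22.9, 11.2, 20.4 and 48.6 CPM, and the retinol carrier RBP7 at 15.4, 15.5, 1.45 and 17.6 CPM. The PPAR and RXR list, of the nuclear receptors that fatty acids bind, their coactivators and targets, had medians of 0.22 and −0.03 over 17 tested. The adipogenic receptor pparg stood at 3.55, 6.04, 18.5 and 7.46 CPM, the coactivator ppargc1b at 42.9, 57.6, 95.2 and 64.9 CPM and the PPAR target ANGPTL4, an inhibitor of lipoprotein lipase, at 48.6, 82.1, 105 and 138 CPM.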

How the data were processed

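Per the labels' protocols, skin RNA was prepared with Illumina's multiplex mRNA chemistry. The submitters' processing notes name the build GRCz10 and list STAR 2.4.1d, CASAVA 1.7 and featureCounts 1.4.6-p4 without roles. For annotation release and strandedness: not given in the sources used here. Deposited counts are whole reads per Ensembl gene. The authors also deposited a table called RPKM, whose values are handled as a score, since their ratio to the counts relative to the 5-month library ran from 0.503 to 1.64 (5th to 95th percentile) within the 30-month library over 8527 genes of at least 100 counts. It served only as an alternative.

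Symbols came from a table of names for 26269 genes, of which 4301 share a symbol. Without the strand setting, overlapping genes cannot be told apart. Counts were analysed with edgeR 4.0.16 in R 4.3.3: TMM, filterByExpr by group (21535 genes), glmQLFit and glmQLFTest at their defaults, a model of group means over 4 libraries, and Benjamini-Hochberg adjustment at 0.05. The spread is estimated from the 24-month pair alone, with 1 residual degree of freedom. Single libraries of the other ages are taken to vary as much. The prior degrees of freedom came out infinite. Each SE and p-value by edgeR thus rests on a spread shared by genes of like level, not on the gene's own replicates. Counts of that pair gave a chi-square of 154 for each degree of freedom (24653 genes) and were kept as 2 samples. Differences between 30 and 5 months and between single libraries are of log2 CPM after TMM, prior count 2, without a test. The fit was tested on simulated data.

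The members and lists were chosen with earlier results of these data known. The 17 lists held 316 genes, of which 4 belong to more than 1. Named genes are all members; for lipid lists, called genes, then the smallest p between 24 and 5 months up to 3, and the most abundant; for cell type lists, the 3 most abundant; and the 6 nearest profiles. Some genes that meet this rule are not reported here. DESeq2 1.42.0 and limma-voom (limma 3.58.1) were alternatives, with library totals, other filters, another edgeR dispersion setting and single 24-month replicates.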

Additional observations from a re-analysis of the deposited data

How the results depend on the processing

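No paired analysis was possible because the labels give no replicate numbers that groups share. Calls across genes depended on the settings. Between 24 and 5 months 27 genes were called (9 higher, 18 lower), 42 with DESeq2 (23 and 19), 3 with limma-voom (0 and 3), and 0 with library totals, a floor of 5 CPM or the newer edgeR dispersion setting; between 30 and 24 months it was 147 (28 and 119), and 71 (17 and 54), 7 (4 and 3), 2, 0 and 1 in the same order. The lipid gene call was 1, and 0 in each of those settings. For fabp1b.2 the log2 difference of 24 and 5 months was 2.72 with DESeq2, 2.42 with library totals, 2.59 with the floor, 2.87 in the RPKM-like table, and 2.62 to 2.66 with 1 replicate left out. That of 30 and 24 months was −9.67, −9.63 and −9.53 in the first 3 of these, −9.44 with limma-voom, −9.35 in the RPKM-like table and −9.02 to −8.99 with 1 replicate left out. Values with 1 replicate left out are differences of log2 CPM with a prior count of 2, not of the fit, and the 30-month library had 4 counts. They are thus no measure of how much either replicate matters. That of 30 and 5 months was −6.61 with library totals, −6.49 in the RPKM-like table and −6.79 with a prior count of 0.5, beside −6.37. The cause of the fabp1b.2 levels was not tested. Of 143 member differences under alternatives 10 had another sign, among fabp2, fabp3, fabp10a and both FABP7 genes. Low counts limit FABP1, fabp2 and fabp6.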

Other observations

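Kidney tubule genes summed to 374 CPM at 5 months, 12.9 and 2.79 CPM in replicates 1 and 2 of 24 months and 2.78 CPM at 30 months, and 7 of 12 were called lower between 24 and 5 months by edgeR, 4 by DESeq2 and 0 by limma-voom or with library totals, beside 0.125% of all genes by edgeR. The cadherin CDH17, the phosphate carrier SLC34A1 (ENSDARG00000028824) and the endocytic receptor CUBN were the most abundant, at 78.0, 55.8 and 50.1 CPM at 5 months. No member of the fatty acid binding protein family was high at 5 months only.

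Macrophage genes summed to 1302 CPM at 5 months, 4304 and 5832 CPM in replicates 1 and 2 of 24 months and 3018 CPM at 30 months. Of 22 tested, 1 was called higher between 24 and 5 months and 1 lower between 30 and 24 months by edgeR, beside 0.125% and 0.683% of all genes, in both cases grna.1, a granulin, named after its values were seen; its 24-month levels were 255 CPM (replicate 1) and 4.03 CPM (replicate 2), while the 5-month library had 2.78 CPM and the 30-month library 5.88 CPM, so replicate 1 set the 24-month mean. DESeq2 called 1 and 0 in these comparisons, and limma-voom, library totals, the floor of 5 CPM and the newer edgeR dispersion setting called 0 in both. The class II chaperone genes cd74a and cd74b and the protease gene LGMN were the most abundant, at 633, 212 and 149 CPM at 5 months. Skin epithelium genes summed to 33700 CPM at 5 months, 49330 and 87080 CPM at 24 months and 51870 CPM at 30 months, led by krt5, krt91 and krt4, and 0 of 20 were called in either comparison by edgeR, with 3 and 0 at an unadjusted p under 0.05, while DESeq2 called 2 higher and 0 in these comparisons.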
